A study of Mus musculus with 8 samples.

Results

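Centrifugation of a testis lysate at the start of chromatoid body purification gave a first pellet and a supernatant. The authors' pellet values are tied to this pellet and to a further pellet made from it. They were set directly against the supernatant values for every feature that the authors listed in both. The features were rows with the same name and the same mm9 locus in the authors' pellet and supernatant tables, each of which carries its own column for the lysate. Of 5289 distinct rows in the 2 tables, 2812 were shared, 193 occurred in the pellet table alone and 2284 in the supernatant table alone. Of the shared rows, 2710 reached 1 FPKM (fragments per kilobase of feature, scaled to the number of mapped reads) in at least 1 fraction, and 102 did not and were left out. The 2710 comprised 343 microRNA genes, 180 numbered piRNA clusters, 90 genes of small structured RNAs (small nucleolar, small nuclear and related RNAs), 1768 other named genes and 329 transcripts that the authors assembled without annotation.

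The mice were of the C57BL/6 strain and at least 6 weeks old, with no transgene or treatment named in the labels of these fractions. The sorted round spermatids, used only for side values, carry the label hetMIWI (MIWI is the PIWI protein PIWIL1), with no further account of the genotype. Testes were dissected and their tubules digested with collagenase to single cells, which were fixed with formaldehyde, taken up in RIPA buffer and broken by sonication. Centrifugation of this lysate gave a first pellet and the supernatant. A second pellet was obtained after the first had been taken up again, sonicated and passed through a filter. Small RNA of 19 to 33 nt was cut from a gel before library preparation. The labels name 1 library for the first pellet, 1 for the second pellet, 1 for the supernatant and 1 for the lysate, and tie both pellet libraries to the single pellet column of values. That column is therefore given as the authors' pellet value. The labels do not say how both libraries enter it. As the second pellet was processed further, the column may not be the direct counterpart of the supernatant. With 1 column for each fraction there is no replicate, no test was possible, and every difference compares these libraries.

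MicroRNAs are RNAs of about the selected length that guide Argonaute proteins to messenger RNAs through their seed, the bases near the 5′ end. PIWI-interacting RNAs (piRNAs) are longer, bind PIWI proteins and arise in the testis from long precursor transcripts of genomic clusters. Both kinds, and the proteins that bind them, are known to gather in the chromatoid body, a granule without a membrane in the cytoplasm of round spermatids.

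The sequences that carry the main contrast are microRNAs that share a seed and yet lay apart in the ratio of pellet to supernatant, with the seed (bases 2 to 8) in capitals. They are given 5′ to 3′ from RefSeq (GRCm38.p6), in which 300 of the 343 microRNA genes found a match. The first 3 are of the let-7 family, the next 3 of the miR-34 and miR-449 family, and the 4 after them of the miR-15 and miR-16 family. miR-205 and miR-1983 are shown because their ratios lay on the other side from nearly all microRNAs.
mmu-let-7f-5p: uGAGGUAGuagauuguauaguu
mmu-let-7c-5p: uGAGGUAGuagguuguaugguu
mmu-let-7a-5p: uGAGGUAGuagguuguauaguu
mmu-miR-34a-5p: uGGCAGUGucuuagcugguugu
mmu-miR-449a-5p: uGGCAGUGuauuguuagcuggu
mmu-miR-34b-5p: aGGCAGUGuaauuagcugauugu
mmu-miR-322-5p: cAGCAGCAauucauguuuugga
mmu-miR-16-5p: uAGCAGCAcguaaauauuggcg
mmu-miR-15b-5p: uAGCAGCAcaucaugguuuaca
mmu-miR-497a-5p: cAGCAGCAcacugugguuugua
mmu-miR-205-5p: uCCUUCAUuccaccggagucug
mmu-miR-1983: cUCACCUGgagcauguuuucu

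The values of both fractions were first brought to 1 lysate. The lysate columns of the 2 tables differed by a constant factor of 2.39, and after scaling agreed within 0.001 log2 units for 2771 of 2785 features. On this scale pellet values were lower than supernatant values for most features, and the median ratio was 4.49-fold lower in the pellet. Pellet FPKM summed to 2901070 over the 2710 features and supernatant FPKM to 66525600. The log2 ratio of (pellet FPKM + 1) to (supernatant FPKM + 1) was therefore centred on its median over all 2710 features. A ratio of 0 means that a feature had the same ratio as the median feature, not that its levels were equal. Positive ratios are higher in the pellet. After centring, the pellet exceeded the supernatant by 2-fold or more in 312 features (11.5%) and fell short of it by as much in 460 (17.0%). Without centring, 103 were at least 2-fold higher. Listed at 0 in the pellet were 225 of the 2710, of which 136 are among the 460, and listed at 0 in the supernatant were 16, all among the 312. Each standard error (SE) is the one implied by the authors' test statistics of both tables, and 838 features had an SE of at most 0.5. It counts the lysate in both tables and includes no spread between animals. It was derived without a pseudocount, so it does not cover the shift that the pseudocount of 1 gives to low features. The sources used here do not give the total RNA of each fraction, so a smaller share of a molecule in the pellet and a larger mass of other RNA there cannot be told apart.

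The labelled tissue was checked against testis genes. Prm1, Prm2, Tnp1 and Tnp2, which encode the protamines and transition proteins that pack sperm chromatin, were present in both fractions. Of other testis cells, 1 of 8 spermatogonial markers (Kit), 1 of 8 Sertoli cell markers (Clu) and 2 of 7 Leydig cell markers (Insl3 and Cyp17a1) were shared features, and 0 of 7 markers of blood and peritubular cells. MicroRNA markers of these last cells, counted apart, were shared. In the supernatant Mir451 (blood) had 1728760 FPKM, and Mir143 and Mir145 (peritubular or smooth muscle) had 691288 and 48830 FPKM. Their pellet levels were 24386, 25211 and 2682 FPKM. Clu had 1.01 FPKM in the pellet and 3.79 FPKM in the supernatant, and Insl3 had 1.55 FPKM in the pellet and 42.7 FPKM in the supernatant.

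MicroRNA genes were the class farthest below the median, at a median of -2.68 on the log2 scale, and its middle part reached from -3.79 to -1.63 (the quartiles). At least 2-fold lower in the pellet were 287 of the 343, and 19 were at least 2-fold higher. That is 83.7% of the class on the supernatant side, against 17.0% of all features, and 5.54% on the pellet side, against 11.5%. Of the 287, 60 were listed at 0 in the pellet. piRNA clusters lay at -0.24, structured RNA genes at -0.19, assembled transcripts at 0.10 and other named genes at 0.16. The median of microRNA genes was 5.41-fold below that of piRNA clusters, a difference of -2.44 log2 units that no centring can change. It was -2.13 over features above 0 in both fractions with no pseudocount. The class medians other than that of microRNA genes were all within 0.25 of the overall median, and some of their signs depended on the settings. With a pseudocount of 0.1 piRNA clusters came to 0.30 and structured RNA genes to 0.35. Over features above 0 in both fractions, with no pseudocount, piRNA clusters came to 0.28 and other named genes to -0.05. MicroRNA genes made up 93.3% of the listed FPKM in the pellet and 98.7% in the supernatant, whereas piRNA clusters made up 1.73% in the pellet and 0.327% in the supernatant. FPKM is divided by feature length, which gives short features such as microRNA genes more weight than long clusters. These percentages are therefore not shares of reads or of RNA.

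**Figure D1:**
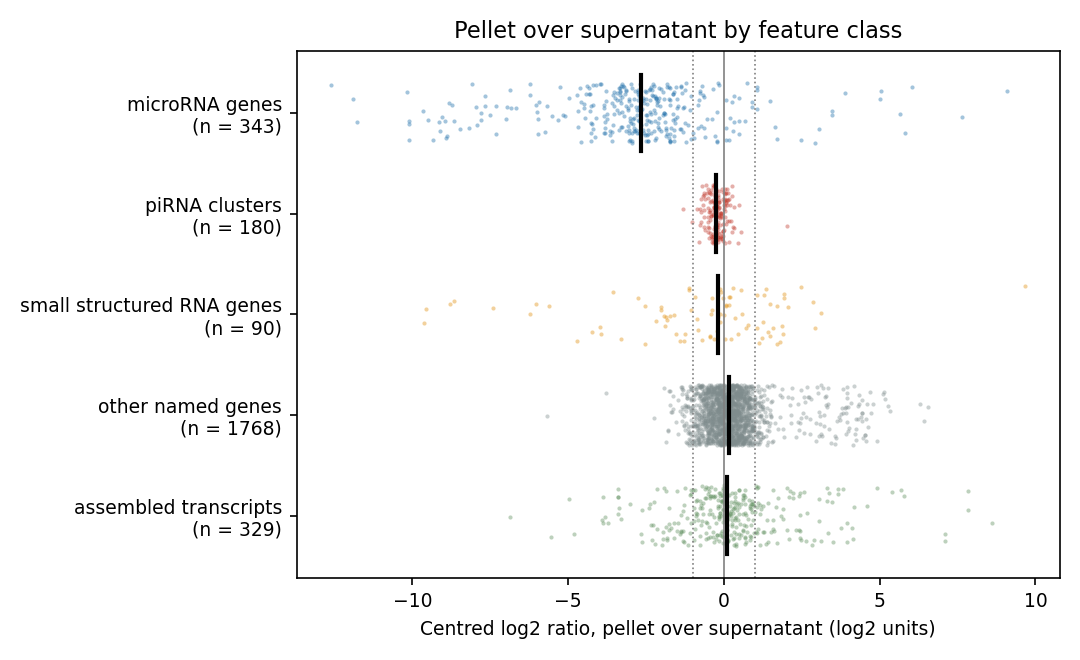
Centred log2 ratio of pellet over supernatant for each of 2710 features (points), by class, with the class median as a black bar and dotted lines at 2-fold. Points of microRNA genes lie mostly left of the lower line, and piRNA clusters form a narrow band around -0.24 with 1 point at 2.01.

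**Figure D2:**
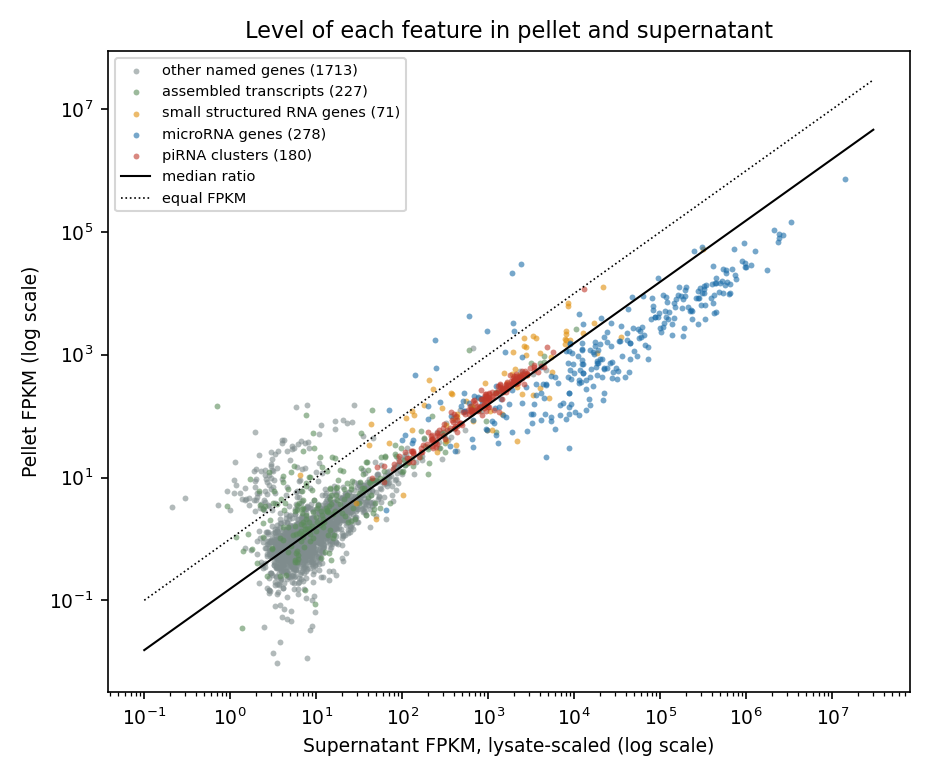
Pellet FPKM (vertical, log scale) against lysate-scaled supernatant FPKM (horizontal, log scale) for features above 0 in both fractions. The solid line is the median ratio and the dotted line equal FPKM, and most microRNA genes lie under the solid line while a group of named genes of low level lies above the dotted line.

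MicroRNAs of the let-7 family, which is abundant in differentiated cells, were all at least 2-fold lower in the pellet. The median over its 12 genes was -3.51. Mirlet7f-2 had 4984 FPKM in the pellet and 443430 FPKM in the supernatant, a log2 ratio of -4.31 ± 0.28 (SE). Mirlet7f-1, another copy that yields the same mature let-7f, had a ratio of -4.26 ± 0.28. Mirlet7c-2 had 9947 FPKM in the pellet and 624282 FPKM in the supernatant, a ratio of -3.81 ± 0.16. Mirlet7a-1 had 15890 FPKM in the pellet and 525710 FPKM in the supernatant, a ratio of -2.88 ± 0.13. These copies differ little in sequence. From let-7a to let-7f the mature sequence changes by G12A and from let-7a to let-7c by A19G, counting from 1 at the 5′ end of let-7a. The sources used here do not say how reads that match several of these genes were assigned, so the split of reads between them is uncertain. The highest let-7 ratio was that of Mirlet7d, at -2.77 ± 0.19.

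The miR-34 and miR-449 family, known for its high level in meiotic and postmeiotic male germ cells, held the most abundant feature in both fractions. Mir34c had 719747 FPKM in the pellet and 14086600 FPKM in the supernatant, a ratio of -2.13 ± 0.03. Mir34b lay at -2.53 ± 0.07, Mir449a at -2.94 ± 0.07 and Mir34a at -3.75 ± 0.17, so each of these 4 differed from the next by more than their summed SEs. Mir449c, at -3.13 ± 0.59, could not be placed among them. Mir449b, at 119 FPKM in the pellet and 517 FPKM in the supernatant, lay at 0.06 with an SE of 2.15. Mir34b and Mir34c are neighbours on chromosome 9.

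The miR-15 and miR-16 family, whose members share the seed AGCAGCA, spread over the widest range of any seed group with 3 or more precisely measured genes. Its 7 genes ran from -3.94 ± 0.30 for Mir322 to -1.82 ± 0.19 for Mir497. Mir322 had 2764 FPKM in the pellet and 190876 FPKM in the supernatant, and Mir497 had 12574 FPKM in the pellet and 199519 FPKM in the supernatant. Their supernatant levels were close and the pellet levels set them apart. Mir16-1 and Mir16-2, which yield the same mature miR-16, lay at -2.72 ± 0.06 and -2.71 ± 0.06. Mir15b, the family's most abundant member, had 143444 FPKM in the pellet and 3349490 FPKM in the supernatant, a ratio of -2.38 ± 0.08. Genes with 1 seed spread to differing degrees, with ranges from 0.05 to 2.12 over 15 seed groups. The range within the let-7 seed GAGGUAG was 1.54 over 9 genes and within the miR-34 seed GGCAGUG 1.22 over 3 genes. These 3 were Mir34a, Mir449a and Mir34b. The seed groups hold only genes with a sequence match, and Mir34c, at -2.13 ± 0.03, is not among the 3. Narrow groups were the miR-26 seed UCAAGUA with a range of 0.42, the miR-19 seed GUGCAAA with 0.24 and the miR-99 and miR-100 seed ACCCGUA with 0.05, each over 3 genes.

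The X-linked testis microRNA cluster, a mouse and rat group of fast-evolving microRNAs expressed in testis, was lower in the pellet in 19 of 19 shared genes, with a median of -2.89. Mir547 had 2027 FPKM in the pellet and 182966 FPKM in the supernatant, the lowest ratio of all features with an SE of at most 0.5, at -4.33 ± 0.47. Mir471 lay at -4.25 ± 0.49 and Mir741 at -2.50 ± 0.12. Mir465b-2 was the highest of the cluster, at -2.19 ± 0.35. Outside these families, Mir202, which is known from gonads, had 4813 FPKM in the pellet and 417167 FPKM in the supernatant, a ratio of -4.27 ± 0.35. Mir451, known from red blood cells, had 24386 FPKM in the pellet and 1728760 FPKM in the supernatant, a ratio of -3.98 ± 0.16.

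Other families followed with medians of -3.30 for miR-181 (6 genes), -3.003 for the miR-10, miR-99 and miR-125 group (8 genes) and -2.85 for miR-200 (5 genes). The medians were -2.35 for miR-30 (6 genes), -2.29 for the miR-23, miR-24 and miR-27 clusters (6 genes) and -2.17 for the miR-17-92 and miR-106b-25 group (14 genes). These last 3 medians turned to between 0.00 and 0.19 when the fractions were scaled to equal FPKM sums, a scaling that moves the median of all features to 0.71. In this frame, set almost wholly by microRNAs, the median of microRNA genes was -0.34 and that of piRNA clusters 2.06. Of the 117 microRNA genes with an SE of at most 0.5, 108 were at least 2-fold lower, 8 lay between and 1 was higher.

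**Figure D3:**
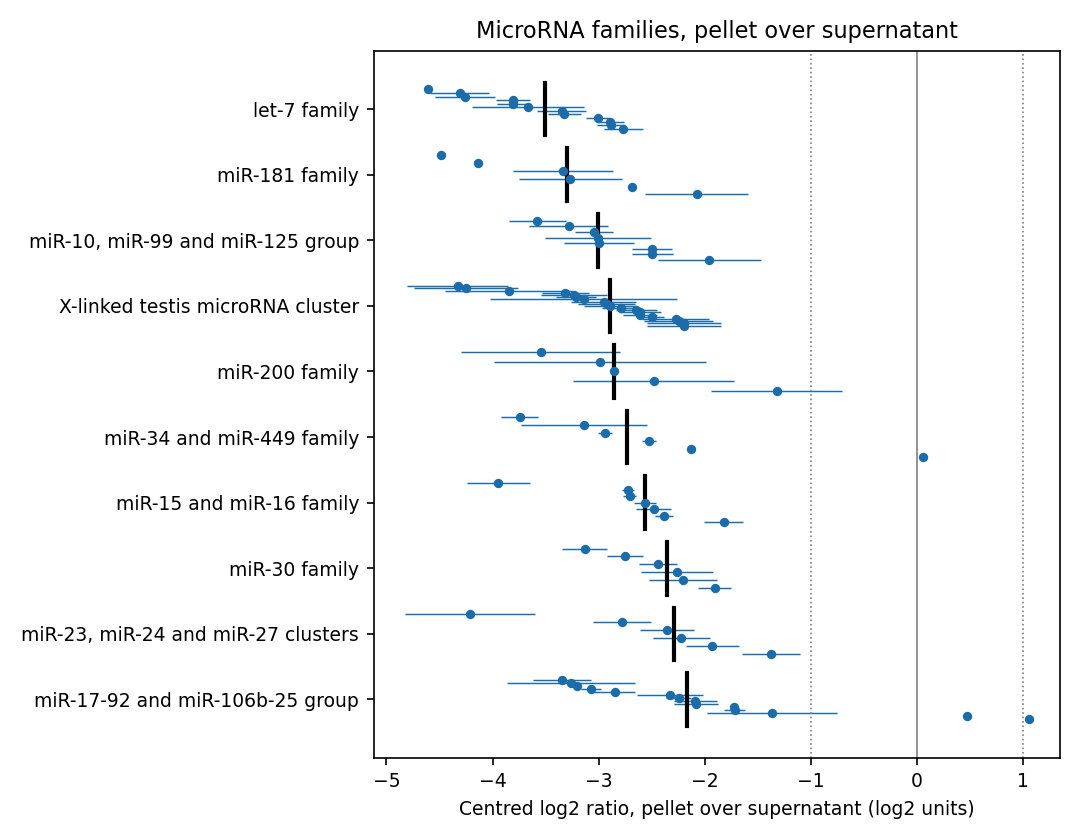
Centred log2 ratio of pellet over supernatant of each member (points) of 10 microRNA families or groups, with the SE implied by the authors' statistics where it is at most 1 and the family median as a black bar. All 10 medians lie left of the 2-fold line at -1, from -3.51 for let-7 to -2.17 for the miR-17-92 and miR-106b-25 group.

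A few precisely measured microRNA genes stood near the median of all features, and 1 above it. Mir469, a microRNA of mouse, had 48997 FPKM in the pellet and 246622 FPKM in the supernatant, a ratio of -0.17 ± 0.12. It shares its locus entry with piRNA cluster 39, which lay at 0.32 ± 0.02, so the reads of both cannot be told apart. The 3 Mir124a genes, which yield the same mature miR-124, a microRNA best known from neurons, lay at -0.24, -0.23 and -0.23, each ± 0.26. Mir1983, an entry that resembles part of a transfer RNA, was the single microRNA gene above 2-fold with an SE of at most 0.5. It had 3335 FPKM in the pellet and 1953 FPKM in the supernatant, a ratio of 2.94 ± 0.39.

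Of the 19 microRNA genes at least 2-fold higher in the pellet, 12 had an SE above 1 and 3 had none because they were listed at 0 in the supernatant. Chosen after their values were seen, Mir205 and the Mir1 and Mir133 genes stood out among them. Mir205, a microRNA of epithelia, had 30155 FPKM in the pellet and 2385 FPKM in the supernatant, a ratio of 5.83 ± 0.65. Mir1-1, known from muscle, had 21192 FPKM in the pellet and 1897 FPKM in the supernatant, a ratio of 5.65 ± 0.75. Both were above the supernatant without any centring. Mir1-2 had 2428 FPKM in the pellet and 1968 FPKM in the supernatant, and its ratio was 2.47 ± 1.75. Mir133a-1 and Mir133a-2, copies of another muscle microRNA, both came to a ratio of 3.46 with SEs of 1.39 and 1.33. In the authors' table of RNA bound in MVH immunoprecipitation (IP), which starts from the second pellet, Mir205 had 214040 FPKM and Mir1-1 had 133640 FPKM. Mir133a-1 had 30773 FPKM, Mir1-2 had 28591, Mir133a-2 had 7844 and Mir133b had 344 FPKM there. As a group, microRNA genes at least 2-fold higher in the pellet had a median of 10488 FPKM there over 11 listed. Those at least 2-fold lower had a higher median, 14517 FPKM over 158 listed. Mir1983 had 4408 FPKM. MVH is the mouse vasa homolog, a helicase of the chromatoid body, and its table was normalized separately.

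At the other end, 62 microRNA genes were listed at 0 in the pellet, and 23 of them lay on chromosome 12, which held 44 of the 343. Their supernatant levels were low, with a lowest value of 6.07, a median of 640.3 and a highest value of 27762 FPKM, against a median of 21549 FPKM for those above 0 in the pellet. Mir374c, Mir411 and Mir154 had the highest supernatant levels among them. Mir154 had 15672 FPKM in the supernatant and shares its locus entry with at least 1 other microRNA gene, Mir412. Of the 62, 12 share an entry with another microRNA gene, and sharing with features of other classes was not counted. A value of 0 in a shared entry can be a failed estimate, and no fold is given.

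piRNA clusters lay close together in the ratio. Over the 180 clusters the standard deviation of the log2 ratio was 0.325, and 177 lay within 2-fold of the median feature. Their median SE was 0.042, so most differences between clusters exceeded the SE although they were small. 37 clusters had a positive ratio and 143 a negative one. The cluster of the highest mean level after cluster 177 was cluster 79 on chromosome 8 (94713346 to 94717740, mm9), with 1114 FPKM in the pellet and 5667 FPKM in the supernatant, a ratio of -0.18 ± 0.01. It stood near the middle of all clusters. Across the 180 clusters, which share libraries, Spearman's rho of the ratio was -0.05 with the length of the cluster and -0.02 with its level in the lysate.

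Cluster 177 on chromosome 17 (39983504 to 39984882, mm9) stood apart. It had 11581 FPKM in the pellet and 12892 FPKM in the supernatant, a ratio of 2.01 ± 0.01. It held 23.0% of all cluster FPKM in the pellet and 5.93% in the supernatant. Without centring its ratio was -0.15, so its level was close in the 2 fractions while that of the other clusters was several-fold lower in the pellet. Without it the standard deviation over clusters was 0.279. Among RNA of the MVH IP, cluster 177 had 28330.0 FPKM and among that of sorted round spermatids 740.3 FPKM, whereas cluster 79 had 3777 FPKM in the MVH IP and 5174 FPKM in round spermatids. Whether the reads of cluster 177 are piRNAs was not tested. Mir715, a listed feature upstream (39981080 to 39981190), did not share the ratio of the cluster, with 156 FPKM in the pellet and 1746 FPKM in the supernatant and a ratio of -1.31 ± 1.05. The next highest was cluster 49 on chromosome 6 (85060730 to 85076088), at 263 FPKM in the pellet and 817 FPKM in the supernatant, a ratio of 0.53 ± 0.05. It shares its locus entry with the gene Gm5878, which lay at -0.34 ± 0.04, and reads of the 2 cannot be told apart. Cluster 29 on chromosome 5 followed at 0.49 ± 0.11.

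With the pseudocount of 1, the 2 clusters at least 2-fold lower in the pellet lay in 1 stretch of chromosome 17 (27428274 to 27499405, mm9). The stretch was picked after the values were seen. Cluster 185 had 119 FPKM in the pellet and 1323 FPKM in the supernatant, a ratio of -1.30 ± 0.06. Cluster 188 had 126 FPKM in the pellet and 1151 FPKM in the supernatant, a ratio of -1.02 ± 0.05. All 7 clusters of the stretch were negative, with a median of -0.77 and a highest value of -0.50 in cluster 187. With a pseudocount of 0.1, and also with none, 0 clusters were at least 2-fold lower. Cluster 187 was then slightly positive and the others of the stretch stayed negative. All 7 stayed below the median of all clusters in both settings. Neighbouring entries may be parts of the same precursor. Over the 95 pairs of adjacent clusters within 100000 bp the median absolute difference was 0.186, and over all 16110 pairs 0.256. By chromosome the medians ran from -0.51 on chromosome 17 with 20 clusters to 0.10 on chromosome 13 with 7 clusters, apart from chromosome 19 with a single cluster at 0.29.

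**Figure D4:**
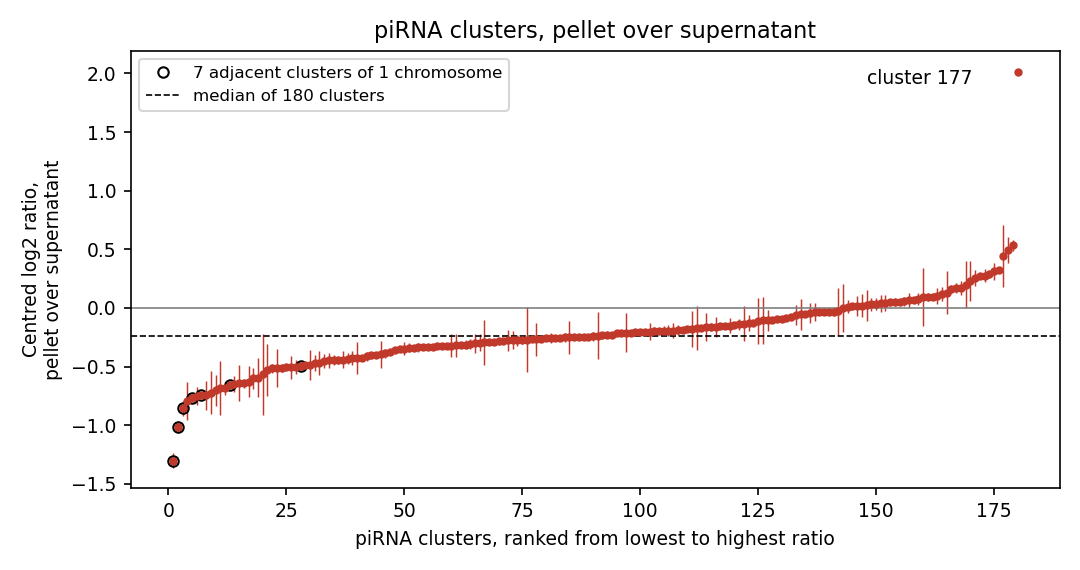
Centred log2 ratio of pellet over supernatant of the 180 piRNA clusters in rank order, with SE bars and the class median of -0.24 as a dashed line. Cluster 177 stands alone at 2.01, and open circles mark 7 adjacent clusters of chromosome 17, which include the 2 lowest.

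Small structured RNA genes were the least uniform class, with quartiles of -1.86 and 1.06, and few were measured precisely. Of the 90, 24 were at least 2-fold higher in the pellet and 33 lower, 18 of the 33 being listed at 0 in the pellet. These are 26.7% higher, against 11.5% of all features, and 36.7% lower, against 17.0%. Only 4 had an SE of at most 0.5. Rnu12 and Rnu11, which encode the U12 and U11 RNAs of the minor spliceosome, were lower in the pellet. Rnu12 had 1928 FPKM in the pellet and 35357 FPKM in the supernatant, a ratio of -2.03 ± 0.18. Rnu11 had 1060 FPKM in the pellet and 18208 FPKM in the supernatant, a ratio of -1.94 ± 0.41. Rnu1b2, a gene of the U1 RNA of the major spliceosome, lay at -1.83 ± 0.11. The direction of these 3 turned under scaling to equal FPKM sums, with values of 0.32 for Rnu12, 0.42 for Rnu11 and 0.49 for Rnu1b2. Snord2, a C/D box small nucleolar RNA that guides RNA methylation, was the most abundant of the class at 53600 FPKM in the pellet and 315473 FPKM in the supernatant, a ratio of -0.39 ± 0.14.

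Among the C/D box genes, 15 of 54 were at least 2-fold higher in the pellet and 14 lower, with a median of -0.06. These are 27.8% and 25.9%, against 11.5% and 17.0% of all features. Among the H/ACA box genes, whose RNAs guide pseudouridylation, 7 of 23 were higher (30.4%) and 10 lower (43.5%), with 8 listed at 0 in the pellet. Cajal body RNAs numbered 5, with 2 higher (40.0%) and 3 lower (60.0%), and their median of -2.16 became 1.58 over the 3 above 0 in both fractions without pseudocount. Of 8 spliceosomal and other structured RNAs, 6 were at least 2-fold lower (75%) and 0 higher. Their median of -1.86 became 0.45 under equal FPKM sums. Chosen after its values were seen, Snord37 was an abundant C/D box gene on the pellet side, with 12835 FPKM in the pellet and 21604 FPKM in the supernatant and a ratio of 1.41 ± 0.56. Snord83b was listed at 0 in the supernatant, and Snord91a and Rnu73b were listed at 0 in the pellet.

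Among the 1768 other named genes, 190 were at least 2-fold higher in the pellet and 76 lower. That is 10.7% of the class on the pellet side, close to the 11.5% of all features, and 4.30% on the supernatant side, against 17.0% of all features. The 8 highest ratios with an SE of at most 0.5 belonged to genes with 4.47 to 27.6 FPKM in the lysate. Msto1, which encodes a protein of mitochondrial distribution, had 151 FPKM in the pellet and 7.76 FPKM in the supernatant, a ratio of 6.29 ± 0.39. Kit, the receptor of stem cell factor and a marker of differentiating spermatogonia, had 18.2 FPKM in the pellet and 1.15 FPKM in the supernatant, a ratio of 5.32 ± 0.38. A truncated Kit transcript is also known from mouse spermatids, and the values do not tell the transcripts apart. Magt1, whose product takes part in magnesium transport and protein glycosylation, lay at 5.26 ± 0.26. Usp50 (5.16 ± 0.39), Cbln3 (5.13 ± 0.35), Morc4 (5.10 ± 0.27), Mmp25 (4.92 ± 0.33) and Hrc (4.71 ± 0.21) followed. These 8 genes were above the supernatant without centring as well. They lie on 7 chromosomes, with Magt1 and Morc4 both on X.

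Of the 1768, 70 were higher by 2-fold or more with an SE of at most 0.5 and 16 were lower by as much, and the 70 were spread over 18 chromosomes. Their median level was 12.2 FPKM in the pellet and 5.85 FPKM in the supernatant. An SE of at most 0.5 needs enough reads in the pellet, so this selection favours genes on the pellet side. The most abundant of the higher genes was Lars2, the mitochondrial leucyl tRNA synthetase, with 1287 FPKM in the pellet and 662 FPKM in the supernatant, a ratio of 3.12 ± 0.03. Lars2 had 4220 FPKM in the MVH IP and 77.3 FPKM in round spermatids, which were normalized separately. Whether its reads come from the messenger RNA of the gene was not tested.

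The MVH IP table gave a further readout of these genes, though not an independent one, since the IP starts from a pellet. Of the 190 genes at least 2-fold higher in the pellet, 168 were listed there and 146 were above 0, with a median of 31.2 FPKM. Of the 76 lower genes, 28 of 61 listed were above 0, with a median of 0. Of the genes between, 836 of 1140 were above 0, with a median of 3.12 FPKM. Median lysate levels ran in another order, at 4.76 FPKM for the higher genes, 19.2 FPKM for the lower and 7.28 FPKM for those between. Hrc had 1377 FPKM, Morc4 835, Usp50 721, Mmp25 490.4, Kit 444 and Magt1 391 FPKM in the MVH IP table, while Msto1 had 63.9 and Cbln3 11.0 FPKM. In round spermatids the medians lay close together, at 13.8 FPKM over 37 higher genes, 11.9 FPKM over 14 lower genes and 14.7 FPKM over 236 between.

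Genes of late spermatids had a median below that of all features, while 17 of 23 lay within 2-fold. Over the 23 shared genes for sperm chromatin and the sperm tail the median was -0.41, with 1 past 2-fold on the pellet side and 5 past 2-fold on the supernatant side. With the pseudocount of 1, the 5 are 21.7% of the list, against 17.0% of all features and 4.30% of other named genes. Prm1 had 26.6 FPKM in the pellet and 433 FPKM in the supernatant, a ratio of -1.81 ± 0.37, the lowest of all other named genes with an SE of at most 0.5. Prm2 had 20.2 FPKM in the pellet and 291 FPKM in the supernatant, a ratio of -1.62 ± 0.30. Tnp1 lay at -0.93 ± 0.35 and Tnp2 at -0.90 ± 0.35, both short of 2-fold. Odf1, a component of the outer dense fibres of the sperm tail, lay at -1.05 ± 0.43, and the single higher gene, the kinase gene Tssk2, at 1.26 ± 0.67. Under equal FPKM sums Prm1 turned to 0.48 and Prm2 to 0.63. Psg23, which followed the protamines among the lowest genes, lay at -1.47 ± 0.28.

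Genes of the chromatoid body and the piRNA pathway lay around the median feature, with 0 of 13 shared genes higher, 1 lower and a median of 0.00. The list had 27 entries, and its 13 shared genes include Hils1, a spermatid linker histone that is also in the late spermatid list. Eif2c2, the gene of the microRNA-binding protein Argonaute 2, had 22.3 FPKM in the pellet and 104 FPKM in the supernatant, a ratio of 0.00 ± 0.09. It shares its locus entry with piRNA cluster 169, so the reads of the gene and the cluster cannot be told apart. Piwil1, the gene of the PIWI protein MIWI, had 2.01 FPKM in the pellet and 12.5 FPKM in the supernatant, a ratio of 0.00 ± 0.34. Ddx4, the gene of MVH, lay at 0.23 ± 0.73, and Tdrd1, a Tudor protein gene, at 0.42 ± 0.46. The lower gene was Ybx2, which encodes an RNA-binding protein of germ cells, at -1.14 ± 0.56. These values are small RNA fragments mapped to the genes and do not measure their messenger RNA or protein.

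Other gene groups lay near the median feature. Over 64 ribosomal protein genes the median was -0.39, with 1 past 2-fold upward and 12 past 2-fold downward, 6 of the 64 being listed at 0 in the pellet. With the pseudocount of 1, the 12 are 18.8%, against 17.0% of all features and 4.30% of other named genes. The 1 is 1.56%, against 11.5% and 10.7%. Rps15 had 116 FPKM in the pellet and 529 FPKM in the supernatant, a ratio of -0.02 ± 0.17. Over 44 histone genes the median was -0.16, with 1 higher (2.27%) and 4 lower (9.09%). House-keeping genes (6 shared, median -0.08), spermatocyte genes (5 shared, median -0.22) and acrosome genes (3 shared, median -0.37) had none past 2-fold. Over features above 0 in both fractions, with no pseudocount, ribosomal protein genes came to a median of -0.59 and histone genes to -0.49. House-keeping genes then came to -0.16, spermatocyte genes to -0.23 and acrosome genes to -0.93. Of 3 nuclear long non-coding RNAs, Malat1 lay at -0.78 ± 0.28, Kcnq1ot1 at 0.34 ± 0.12 and Neat1 at 0.91 ± 0.48. Many ribosomal protein and histone genes have near-identical copies, so their reads may be split or shared.

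**Figure D5:**
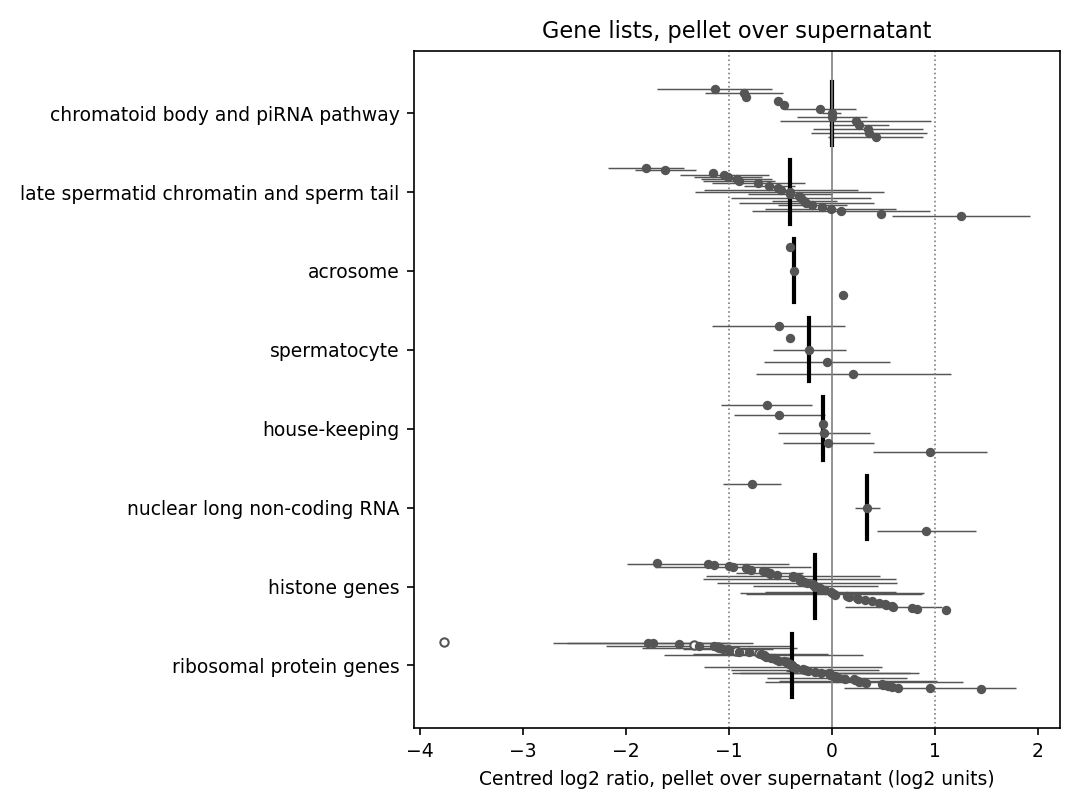
Centred log2 ratio of pellet over supernatant of each shared gene (points) in 8 gene lists, with the list median as a black bar, the SE where it is at most 1, and open circles for genes listed at 0 in a fraction. Most points lie between the dotted 2-fold lines, and Prm1 and Prm2 are the leftmost of the late spermatid genes at -1.81 and -1.62.

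Named genes that overlap piRNA cluster loci lay lower than the rest in their median with the pseudocount of 1, and higher without it. The 10 of them had a median of -0.27, against 0.16 for the 1758 outside, and the clusters themselves lay at -0.24. Over features above 0 in both fractions, with no pseudocount, the medians were 0.26 for the overlapping genes and -0.05 for those outside. The most abundant were 1700020N18Rik and D130017N08Rik. 1700020N18Rik had 554 FPKM in the pellet and 2310.0 FPKM in the supernatant, a ratio of 0.11 ± 0.07, and D130017N08Rik lay at -0.21 ± 0.04. Reads of such a gene and of its cluster cannot be told apart.

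Assembled transcripts had 78 of 329 at least 2-fold higher in the pellet, or 23.7% against 11.5% of all features, and 62 lower, or 18.8% against 17.0%. Most were imprecise, with 40 of the 329 at an SE of at most 0.5. Of these 40, 1 was higher and 1 lower. The higher one was Cuff.2100 on chromosome 16, at 2.90 FPKM in the pellet and 5.66 FPKM in the supernatant, a ratio of 1.39 ± 0.49. The lower one was Cuff.4843 on the mitochondrial chromosome, at 3.17 FPKM in the pellet and 55.7 FPKM in the supernatant, a ratio of -1.60 ± 0.23, which turned to 0.28 under equal FPKM sums. The most abundant was Cuff.2814 on chromosome 2, with 2616 FPKM in the pellet and 10351 FPKM in the supernatant, a ratio of 0.18 ± 0.19. It stood near the median feature.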

How the data were processed

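Small RNA of 19 to 33 nt was sequenced from fractions of adult mouse testis. The authors deposited a pellet and a supernatant table, each with FPKM of the fraction and of the lysate; the unit was taken from Cuffdiff's column names and the values. TopHat, Cuffdiff and the mm9 build are named in the submitters' processing notes, with no versions. The authors' deposited test statistic, a score, was used only for SEs, as the log2 ratio of lysate to fraction divided by it, combined over both tables. Low pellet values lay on steps of 0.308 (65 features, against at most 2 for a moved step) and 0.412 (23 against at most 1) and on sums of both, and supernatant values on steps of 0.667 (180 against at most 1), within a relative tolerance of 3e-05. Pellet values on 2 steps and their sums would arise if the column combined 2 libraries of unequal depth, which the labels do not state. Depth beyond this is unknown. MVH IP FPKM is the authors' single column for 2 libraries; 1 column of that table was not used, as it belongs to none of the samples.

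Supernatant FPKM was scaled to the pellet table's lysate by the median ratio. Features with at least 1 FPKM in either fraction were kept, a pseudocount of 1 was added, and log2 ratios were centred on their median. The pseudocount draws the uncentred ratio of a low feature towards 0, while the centre was -2.17. Low features with less in the pellet are thereby moved towards the pellet side. Cyp17a1, with 0.054 FPKM in the pellet and 3.94 FPKM in the supernatant, had a centred ratio of -0.07. With 1 column for each fraction no test was made, and a feature was counted past 2-fold. Named features are, with an SE of at most 0.5, the 8 highest and 8 lowest, the 3 highest and lowest of each class, the most abundant of each class and list, list extremes and the highest features listed at 0 in a fraction; others are marked as chosen after their values were seen or illustrate a group. The members and lists were chosen with earlier results of these data known. Alternatives were pseudocounts of 0.1 and 10, no or a higher level minimum, no pseudocount, other scalings and centrings, loci of at least 200 bp, lysate values within 1.5 times and a 4-fold limit. The calculation was tested on simulated data. Software was Python 3.11.15, with pandas 2.3.3 and numpy 2.4.6 for the tables, matplotlib 3.10.9 for plots and scipy 1.17.1 for rank correlation.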

Additional observations from a re-analysis of the deposited data

How the results depend on the processing

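No paired analysis was possible because each fraction has 1 column of values and the result comes from no test. The 13 alternatives below were run; the microRNA class median stayed below that of the piRNA clusters in each of the 12 that recompute it, by -2.48 to -2.13 log2 units. The choice of centre decided most of the rest. Without centring the class medians were -4.84 for microRNA genes, -2.41 for piRNA clusters, -2.35 for structured RNA genes, -2.01 for other named genes and -2.07 for assembled transcripts, with 103 features higher in the pellet and 2448 lower. Cuff.2100 then came to -0.77, Snord37 to -0.75, Tssk2 to -0.91 and piRNA cluster 177 to -0.15. With equal FPKM sums the class medians were -0.34 for microRNA genes, 2.06 for piRNA clusters, 2.16 for structured RNA genes and 1.05 for assembled transcripts, with 979 features higher and 145 lower. Under those sums 15 microRNA genes with an SE of at most 0.5 and 1 microRNA family median were at least 2-fold lower, against 108 genes and 11 families. The medians came to 0.19 for the miR-17-92 and miR-106b-25 group, 0.00038 for miR-30, 0.064 for miR-23, miR-24 and miR-27, and 0.45 for spliceosomal and other structured RNA. Mir34c came to 0.23, Mir465b-2 to 0.16, Mir497 to 0.53, Mir93 to 0.11 and Mir715 to 1.02. Rnu11 came to 0.42, Rnu12 to 0.32, Rnu1b2 to 0.49 and Cuff.4843 to 0.28. Prm1 came to 0.48, Prm2 to 0.63, Psg23 to 0.52, Odf1 to 0.82 and Ybx2 to 0.36. piRNA cluster 185 came to 1.03 and cluster 188 to 1.31. A pseudocount of 10 gave class medians of -3.83 for microRNA genes, -1.52 for piRNA clusters and -1.34 for structured RNA genes, with 132 features higher and 691 lower. Over features above 0 in both fractions, with no pseudocount, microRNA genes came to -1.85, structured RNA genes to 0.58 and Cajal body RNA to 1.58. A minimum of 10 FPKM left 174 features higher. Loci of at least 200 bp left 301 features lower, 37 precise microRNA genes lower and 6 families, since shorter microRNA loci drop out. A 4-fold limit left 170 features higher and 282 lower. No filter, scaling by lysate sums, dividing each fraction by its own lysate, centring on piRNA clusters, a pseudocount of 0.1 and lysate values within 1.5 times moved no class median by more than 1.5-fold. The cause of the other changes was not tested. Depth limits the low features: 838 of 2710 had an SE of at most 0.5.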
